A study of Mus musculus with 4 samples.

Results

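Potassium channel genes were examined for TOP2B cleavage complexes in cultured mouse cortical neurons. The members were all autosomal protein-coding genes of mouse build GRCm38 whose symbol starts with Kcn, 92 of 20661 autosomal protein-coding genes. A peak was assigned to a member when its summit lay in the span of the gene or within 10 kb of it. This gave 234 of the 35539 peaks of the list, or 0.663% of the 35315 autosomal ones. The rule used only symbols and positions, not the height of any peak.

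Neurons were taken from the cortex of E16 Swiss-Webster embryos, labelled WT, and every library came from cultures given 50 µM etoposide for 30 min before collection. Native chromatin immunoprecipitation (ChIP) with an antibody to TOP2B gave 2 libraries and input DNA set aside beforehand gave 2, all 4 from treated cells, so no untreated state was compared. The values are 1 peak list pooled over libraries. They carry no standard deviation and no n, the depth of each library is unknown, and the list holds no expression values against which the labelled cell type could be checked. Coordinates are 1-based on GRCm38.

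TOP2B is the type II topoisomerase that cells keep after they stop dividing. It passes one DNA duplex through a break in another and so relieves the supercoils and tangles that transcription leaves, and etoposide holds the enzyme on the open break. Potassium channels set the resting potential of neurons, repolarize them after each action potential and limit how fast they fire. Voltage-gated Kv channels open on depolarization, calcium- and sodium-activated channels answer to ions that enter during activity, inward rectifiers and K2P leak channels hold the resting potential, and auxiliary subunits alter the gating or the surface level of the pore-forming proteins.

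A summit was found in or within 10 kb of 70 of the 92 members (76.1%, 95% Wilson interval 66.4 to 83.6), against 55.5% of all autosomal protein-coding genes. The members are long genes, with a median length of 34.6 kb against 17.5 kb. When all genes were weighted to the members' lengths, in equal-sized groups of genes by length, the background was 64.3%. Inside the gene itself, a summit was found at 58 members (63.0%) against 38.1% of all genes and 49.9% after the same weighting. Of the members, 25 had 1 summit, 30 had 2 to 5 and 15 had more than 5. Those 15 held 52.5% of the assignments.

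Over the whole family, summit density within 10 kb was near that of other genes. The members held 1.88 summits per 100 kb of gene and flank (95% Poisson interval 1.64 to 2.13) against 1.72 at the windows of other protein-coding genes, a ratio of 1.09 (0.955 to 1.24). With windows of 50 kb the ratio was 1.28 and its interval, 1.15 to 1.41, lay above 1. Intervals here and below cover counting error only and treat summits as independent. They are a description of 1 list, and no p-value is given, because peaks and genes are not replicates. The ratio was then taken separately for long and for shorter members. The 23 members over 100 kb held 1.55 summits per 100 kb against 1.53 at other genes of that length, a ratio of 1.01 (0.852 to 1.195). The 69 members of 100 kb or shorter held 94 summits, 2.80 per 100 kb against 1.91, a ratio of 1.46 (1.18 to 1.79). Within their spans alone, without flanks, the ratio for these shorter members was 1.42 (1.08 to 1.83). The comparison among genes of 100 kb or shorter was added after the data were seen, and was not matched for chromosome or for length within that class. Counts were also set against numbers expected from chromosome and length, described below. From the shortest to the longest of 5 length groups, members held 1.03, 1.39, 1.23, 1.33 and 1.02 times those numbers. Each of these intervals included 1.

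Outside all gene windows, the zone 10 to 50 kb from members held more summits per 100 kb than that around other genes. The comparison was not matched for chromosome or gene length. In the nearer flanks, within 10 kb, the members' interval (1.39 to 2.75) included the 1.48 at other genes. Between 10 and 50 kb from a member and outside the window of any protein-coding gene, there were 63 summits or 1.78 per 100 kb (1.37 to 2.27), against 1.32 for the same zone around other genes. In the parts of that zone that fall in windows of other protein-coding genes the density was 3.15 per 100 kb (2.58 to 3.82), for which no like value was computed at other genes. How much of the density at shorter members comes with their neighbourhood was not tested.

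**Figure D1:**
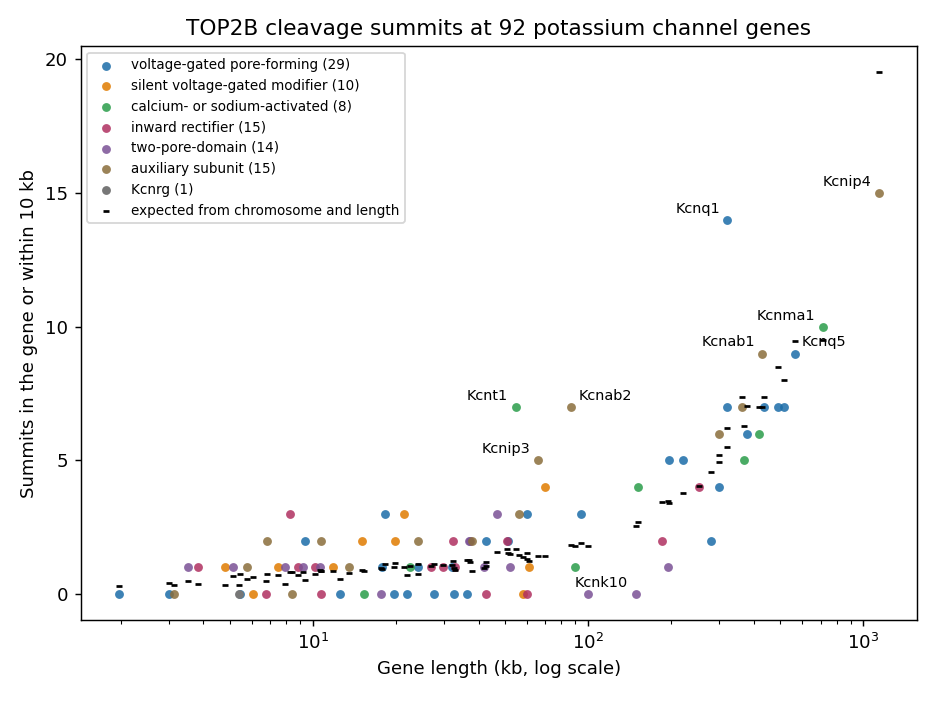
Number of summits in or within 10 kb of each of the 92 members against gene length in kb (log scale), with 1 coloured point per gene by role and a black dash at the number expected from its chromosome and length. Most points follow the dashes, while Kcnq1 (14 summits), Kcnt1 (7), Kcnab2 (7) and Kcnip3 (5) stand above theirs and Kcnk10 has 0.

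For each gene the number of summits was set against that expected from its window length and the density at all genes of its chromosome and length group. The longest group has a median of 109.1 kb and joins genes of very unlike length. Other genes over 100 kb held 1.53 summits per 100 kb, and shorter ones 1.91. Within that group the expected numbers, here and below, may be too high for the longest genes. They may be too low for its shorter ones, such as Kcnab2 and Kcnip3. The exact Poisson interval of the count lay above the expected number at 4 of 92 members (4.35%), against 2.58% of all autosomal protein-coding genes and 2.99% after weighting to the members' lengths, and below it at 0. This share is near the background. The 4 members are named because they complete the count, Kcnip3 after its values were seen. Kcnt1, a sodium-activated channel gene on chromosome 2 from 25863791 to 25918273, held 7 summits where 1.68 were expected (4.17 times, 1.68 to 8.60). Kcnab2, which encodes a β subunit of Kv1 channels, held 7 where 1.85 were expected (3.78 times, 1.52 to 7.78). Kcnip3, which encodes a calcium-binding Kv4 partner also known as DREAM, held 5 where 1.42 were expected (3.51 times, 1.14 to 8.20). Kcnq1, best known from the heart and inner ear, held 14 where 6.22 were expected (2.25 times, 1.23 to 3.78).

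By role, silent modifiers and auxiliary subunits had the highest densities. The 10 genes of silent voltage-gated subunits, which form no channel alone but change Kv2 channels, held 15 summits, 3.16 per 100 kb (1.77 to 5.21) and 1.83 times the density at other protein-coding genes (1.03 to 3.03). The 15 auxiliary subunit genes held 60, 2.13 per 100 kb and 1.24 times (0.946 to 1.596). The other ratios were 1.05 for inward rectifiers (0.631 to 1.64), 1.03 for voltage-gated pore-forming genes (0.833 to 1.27), 0.992 for calcium- or sodium-activated channels (0.687 to 1.39) and 0.879 for K2P channels (0.492 to 1.45). Every interval except that of the silent modifiers included 1. Against the 9.72 summits expected from chromosome and length, the silent modifiers' count was 1.54 times (0.863 to 2.54), an interval that included 1, as did that of their ratio in gene spans only (1.63, 0.706 to 3.22). With windows of 50 kb the K2P ratio turned to 1.41 (1.04 to 1.87) and the auxiliary ratio was 1.30 (1.03 to 1.61), both with intervals above 1. No difference between roles was tested.

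**Figure D2:**
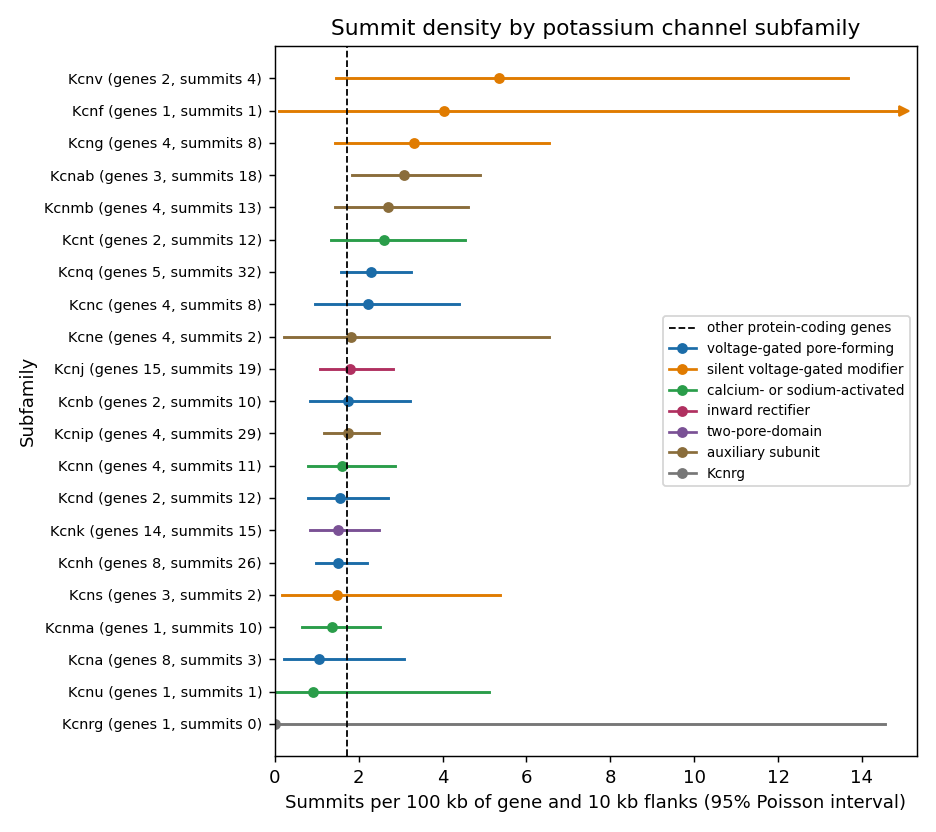
Summits per 100 kb of gene and 10 kb flanks for each of 21 subfamilies, as points with 95% Poisson intervals (an arrow marks an interval that runs off the axis) coloured by role. The dashed line is the density at other protein-coding genes, 1.72 per 100 kb, and Kcnab, at 3.09, is the one subfamily whose interval lies wholly to its right. The intervals of the 21 subfamilies were not adjusted for their number.

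Among voltage-gated pore-forming genes, 20 of 29 had a summit, with 91 summits in all. Their counts are given by subfamily, beside the number expected for gene length. Each peak also has a fold, the ratio of ChIP pileup to control at its summit with 1 added to each, and a q, its false discovery rate. Fold, p and q are the authors' own values, from their deposited table. Kcna genes, which encode the Kv1 channels of axons, are short, with a median length of 10.96 kb, and only Kcna1 and Kcna2 of 8 had a summit. They held 3 summits where 5.55 were expected. Kcna1 had folds of 2.59 and 3.11, and Kcna2 had a single summit with a fold of 2.77 in a peak of 665 bp. Kcnb2, a gene of delayed rectifier channels, held 7 in 436.8 kb, against 7.39 expected, with folds from 2.08 to 2.94. The genes of Kv3 channels, which allow fast firing, had summits at 3 of 4 members. Kcnc2 led them with 5 in 196.4 kb, followed by Kcnc1 with 2, of folds 2.94 and 2.98.

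Kcnd2, the gene of the Kv4.2 channel that carries the dendritic A-type current, held 7 summits in 514.5 kb against 8.02 expected. Kcnh genes had 26 summits over 6 of 8 members, 0.868 times the expected number. Kcnh1, an ether-à-go-go channel gene, held 7 against 5.52 expected, with folds from 2.49 to 3.63, the highest of them at 192451685 on chromosome 1. Kcnh7, an Erg-type member, held 7 against 8.49 expected, all inside the gene and with folds from 2.54 to 3.08. Only 1 of these 7 had a q of 0.05 or less.

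Kcnq genes encode the channels of the M-current, which restrains repetitive firing, except for Kcnq1. All 5 had summits, 32 in all and 1.35 times the expected number, of which Kcnq1 alone gave 14. Kcnq1 spans chromosome 7 from 143106877 to 143427050, with 13 summits inside it and 1 beyond its upper end. Its folds ran from 2.20 to 3.46, and 6 of the 14 had a q of 0.05 or less. A run of 3 summits lay within 5962 bp, at 143183543, 143186794 and 143189505, with folds of 2.98, 3.11 and 3.11. Only 1 summit, at 143282607 with a fold of 3.11, lay in Kcnq1ot1, the antisense noncoding RNA gene known for imprinting of this region. Kcnq5 held 9 in 564.3 kb against 9.46 expected, and Kcnq3 held 4 in 300.3 kb against 5.21 expected. Kcnq5 was at 0.952 times the expected number, and its interval (0.435 to 1.81) overlapped that of Kcnq1.

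The silent modifier genes have a median length of 17.5 kb, like that of all genes, and none held more than 4 summits. Kcng2 had 4, of which 1 lay in the gene and 3 in a run of 5761 bp beyond its lower end. Of that run, 2 lay inside the neighbouring gene Slc66a2. Kcnv1 had 2, of folds 3.80 and 1.97, the stronger of them 3230 bp outside the gene. Kcnv2 had 2, of folds 3.29 and 3.25. Kcng4 had 1 summit of fold 3.80 at 119629775 on chromosome 8, inside the gene. Of the role's 15 summits, 7 (46.7%, Wilson interval 24.8 to 69.9) had a q of 0.05 or less, against 23.5% of all autosomal peaks.

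The group called calcium- or sodium-activated had 34 summits over 7 of 8 members. Kcnu1, with 1 of them, was placed there with its relatives, and the name need not describe its own gating. Kcnma1, the gene of the large-conductance BK channel, spans 712.8 kb of chromosome 14 and held 10 summits against 9.49 expected. These lay between 23451846 and 23860748, the one nearest the 5′ end of the gene still 144362 bp from it, and their folds ran from 2.25 to 3.46. Kcnn2, the gene of the SK2 channel of the afterhyperpolarization, held 6 against 7.003 expected, all with folds of 2.77 or lower and q of 0.110 or higher. Kcnt1 held its 7 in a shorter span. Of these, 5 lay inside the gene between 25888609 and 25905533, with folds of 2.77, 2.59, 2.59, 3.29 and 2.25 in order of position, and 1 lay beyond each end, both with a fold of 2.77. A single summit of Kcnt1 had a q of 0.05 or less. The paralogue Kcnt2 held 5 in 368.4 kb against 6.29 expected.

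Inward rectifier and K2P genes had few summits each. Of 15 Kcnj genes, 11 had a summit, with 19 in all where 20.1 were expected. Kcnj6, which encodes the GIRK2 subunit opened by G proteins, had 4 in 252.7 kb, against an expected number of 4.04, with folds of 2.42 to 2.77. Kcnj14 had 3 summits, none of them in the gene. The 2 of highest fold, both 3.80, lay inside its neighbours Cyth2 and Grwd1, and the other inside Grin2d. Of 14 Kcnk genes, 11 had a summit, with 15 in all where 18.6 were expected. Kcnk9, the gene of the TASK-3 leak channel, had 3, and Kcnk2, the gene of the mechanosensitive TREK-1 channel, had 1 of fold 2.59 in 194.9 kb, where 3.48 were expected. Just 2 of the 15 K2P summits (13.3%, interval 3.74 to 37.9) had a q of 0.05 or less.

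Auxiliary subunit genes include the longest member and 2 of the 4 members whose Poisson intervals lay above the expected number. The share of such members in the whole family was near the background. Kcnip4 encodes a calcium-binding protein that joins Kv4 channels and spans 1136 kb of chromosome 5. It held 15 summits where 19.5 were expected from its chromosome and length group (0.768 times, 0.430 to 1.27), a group that also holds far shorter genes. This was the highest count of any member, 1 more than at Kcnq1, and the order turned among peaks with a q of 0.05 or less (5 against 6). Its folds ran from 2.08 to 3.63, the highest at 48399797, and 5 of the 15 had a q of 0.05 or less. Kcnip1 held 7 against 7.36 expected. The 3 Kcnab genes, whose proteins bind Kv1 channels in the cytoplasm, held 18 summits in 582.6 kb, 3.09 per 100 kb (1.83 to 4.88) and 1.796 times the density at other protein-coding genes (1.06 to 2.84). Kcnab is 1 of 21 subfamilies compared, and the intervals were not adjusted for that number. Kcnab1 held 9, all inside the gene and between 65079654 and 65308715 on chromosome 3. Their folds in order of position were 2.20, 2.27, 3.80, 2.97, 3.29, 3.46, 3.11, 2.76 and 3.11. Thus 6 of the 9 had a q of 0.05 or less, the same number as at Kcnq1. The noncoding gene A330015K06Rik also covered 5 of the 9. Kcnab2 had 4 summits inside the gene and 3 downstream of it. The 3 downstream ones, with folds of 3.80, 2.59 and 1.91, lay in a run of 2807 bp inside Chd5, a chromatin remodeller gene, so that 4 of its 7 remained when the gene span alone was used. Kcnip3 had 4 inside the gene and 1 downstream. Kcnmb2, which encodes a β subunit of BK channels, had 6, against 4.95 expected. Of the 60 summits of the role, 22 (36.7%, interval 25.6 to 49.3) had a q of 0.05 or less, above the 23.5% of all autosomal peaks.

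**Figure D3:**
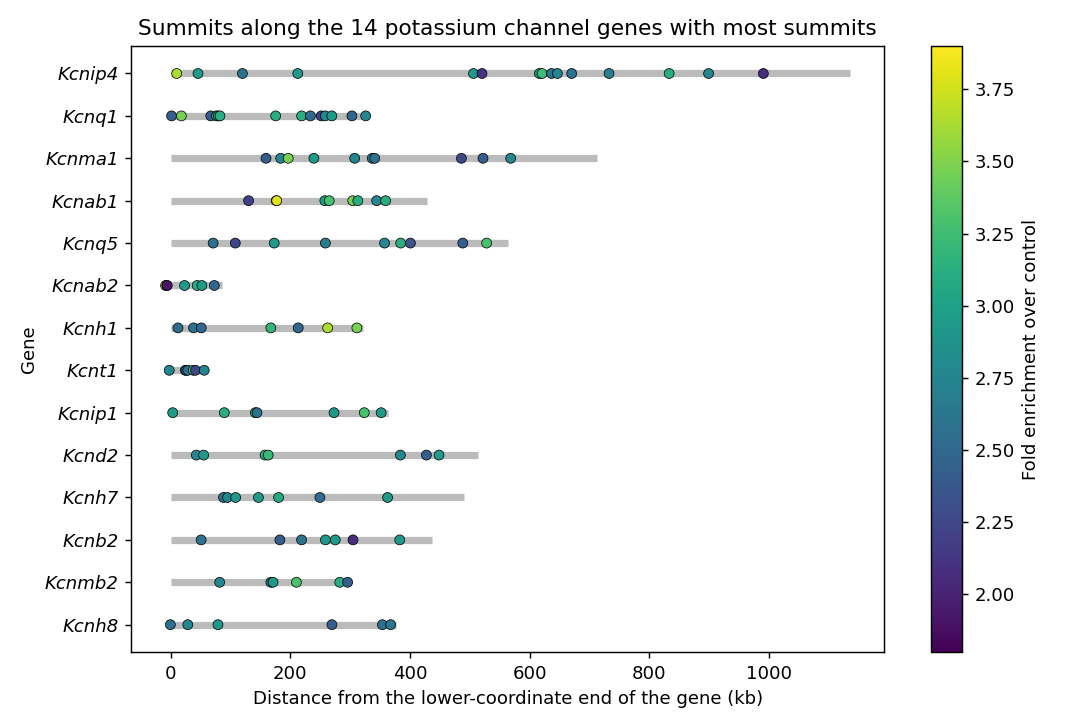
Summits along the 14 members with most summits (Kcnn2, tied at 6 with the last drawn, is left out), with distance from the lower-coordinate end of the gene in kb on the x axis, grey bars for the genes and points coloured by fold enrichment. The 15 summits of Kcnip4 spread over 1136 kb, while the 7 of Kcnt1 and the 7 of Kcnab2 crowd into and beside genes of 54.5 and 86.8 kb.

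No summit was found at 22 members, whose median length was 16.6 kb. These were Kcna3, Kcna4, Kcna5, Kcna6, Kcna7, Kcna10, Kcnc4, Kcnh4, Kcnh6, Kcns2, Kcng3, Kcnn4, Kcnj2, Kcnj8, Kcnj15, Kcnj16, Kcnk10, Kcnk13, Kcnk18, Kcne3, Kcne4 and Kcnrg. The longest was Kcnk10, a TREK-2 leak channel gene of 148.8 kb, where 2.56 summits were expected, followed by Kcnk13 (99.5 kb), Kcnj16 (59.9 kb), Kcng3 (58.0 kb) and Kcnj15 (42.7 kb). Since their expected numbers were 2.56 or fewer, a count of 0 at any one of them is within counting error.

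Summits close to a gene end were about as frequent as in other genes. A summit lay within 1 kb of an end at 9 members (9.78%), against 8.67% of all autosomal protein-coding genes and 8.78% after weighting for length. Of these 9, 5 were auxiliary subunit genes (33.3% of that role), 2 were silent modifiers (20%) and 2 voltage-gated pore-forming genes (6.90%). Whether roles differ in this was not tested. The promoter table gave the direction of transcription for 68 of the 92 members and for 5 of the 9. Kcne2, a small single-pass subunit gene, had a summit 138 bp before its start, with a fold of 3.11. Kcnh8 had one 257 bp before its start, with a fold of 2.59, where the gene Gm27217 also lies. At the other 3 the summit was at the far end of the gene. That of Kcnmb4 lay 407 bp inside the end and in the antisense gene Kcnmb4os1, that of Kcnip2 376 bp inside, and that of Kcns1 929 bp outside. Their folds were 2.59, 2.94 and 2.77. The remaining 4 had no listed direction. The summit of Kcna1 lay 28 bp inside its lower-coordinate end, that of Kcnab3 312 bp inside (fold 1.88), that of Kcne1 400 bp inside (fold 3.11) and that of Kcnv2 441 bp outside its upper end (fold 3.25).

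RefSeq promoter windows on GRCm38.p6, from 250 bases before to 50 after a listed start, were available for 68 members (93 windows). A peak overlapped 3 of them (3.23%), against 1.31% of the 20084 windows of autosomal protein-coding genes. These 3 are shown because they are the places where a cleavage peak reached into the window of a listed start of a member. Only the Kcnh2 peak covered the start itself, and those of Kcne2 and Kcnh8 ended before it. Each line gives the 250 bases before the start on the gene's strand, with the bases inside the peak in capitals.

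Kcne2, chr16:92292139-92292388, plus strand: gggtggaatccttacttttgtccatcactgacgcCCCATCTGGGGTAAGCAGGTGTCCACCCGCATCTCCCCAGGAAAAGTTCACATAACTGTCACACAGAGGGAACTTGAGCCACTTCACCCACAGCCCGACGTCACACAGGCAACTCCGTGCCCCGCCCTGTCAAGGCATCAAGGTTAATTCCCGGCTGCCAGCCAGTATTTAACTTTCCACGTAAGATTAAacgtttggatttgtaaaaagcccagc

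Kcnh8, chr17:52602459-52602708, plus strand: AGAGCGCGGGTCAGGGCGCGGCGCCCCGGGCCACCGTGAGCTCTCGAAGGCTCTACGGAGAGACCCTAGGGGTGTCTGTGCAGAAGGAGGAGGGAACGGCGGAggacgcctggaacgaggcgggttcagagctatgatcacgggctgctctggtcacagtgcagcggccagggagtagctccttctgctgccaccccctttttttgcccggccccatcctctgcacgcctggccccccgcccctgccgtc

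Kcnh2, chr5:24329592-24329841, minus strand: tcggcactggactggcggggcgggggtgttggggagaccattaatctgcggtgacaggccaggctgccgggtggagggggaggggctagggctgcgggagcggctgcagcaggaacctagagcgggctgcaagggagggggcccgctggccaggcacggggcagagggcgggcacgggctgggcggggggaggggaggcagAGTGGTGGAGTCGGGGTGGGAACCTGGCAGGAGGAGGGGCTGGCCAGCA

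The Kcne2 peak, of the minimum width of 190 bp, lay wholly within these 250 bases. The Kcnh8 peak covered the distal 103 bases and had its summit just beyond them, and its q was 0.177. Kcnh2 encodes the Erg1 channel, and its sequence belongs to a start inside the gene. There the peak covered the 49 bases nearest the start and had its summit 268 bp downstream, with a fold of 3.11. The 3 sequences differ in base composition. They hold 9, 20 and 14 CG pairs for Kcne2, Kcnh8 and Kcnh2, against a median of 10 over all windows (quartiles 3 and 19), and their G and C content was 52.4%, 68.4% and 73.6% against a median of 56.0%. The letters GGGCGG, searched on both strands, occur in all 3 and in 43.4% of all windows. The letters CCCTC, searched likewise, occur in all 3 and in 65.0% of all windows, and TATAAA occurs in none of them and in 11.7% of all windows.

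Peaks at members had the height of peaks elsewhere. The median fold was 2.77 at the 234 member peaks (quartiles 2.54 and 2.98) and 2.77 at all autosomal peaks (2.49 and 2.94). Fragment numbers rebuilt from fold and p under that formula ran from 11 to 21 at members, with a median of 16 against a common control level of 4.78, which 71.8% of member peaks shared. Small whole numbers make folds heavily tied, and 35 member peaks had a fold of 2.59 and 32 one of 2.94. A q of 0.05 or less was found at 63 member peaks (26.9%, interval 21.6 to 32.9), against 23.5% of autosomal peaks. Such a peak was found at 37 members (40.2%), against 22.2% of all genes and 28.1% after weighting for length.

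**Figure D4:**
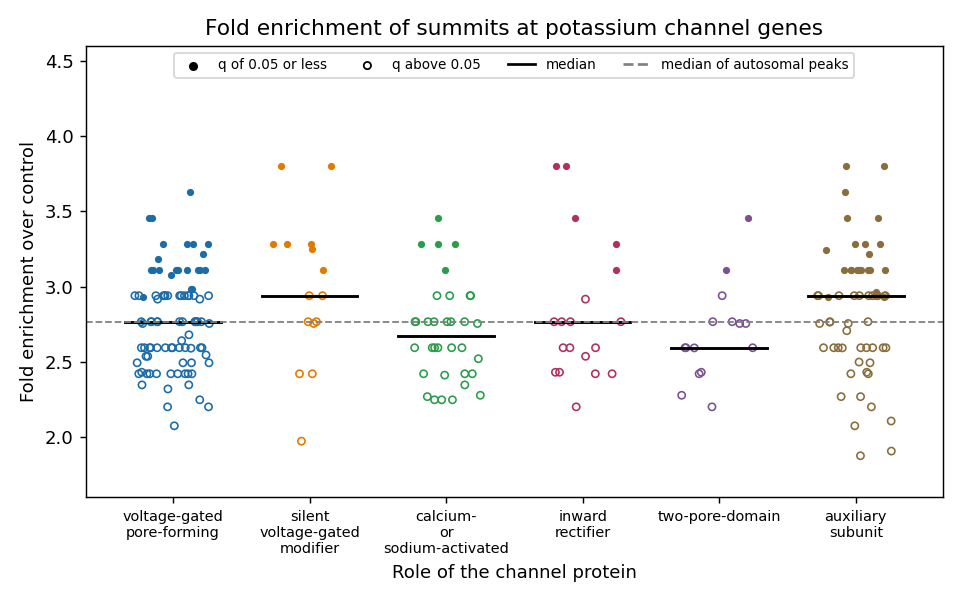
Fold enrichment over control of each peak at members, by role of the channel protein (points jittered sideways, filled where q is 0.05 or less), with the median of each role as a black bar and that of all autosomal peaks, 2.77, as a dashed line. Values lie on shared levels up to 3.80, and the medians run from 2.59 for K2P genes to 2.94 for silent modifiers and auxiliary subunits.

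The highest fold at members, 3.80, was shared by 6 peaks with 21 fragments each and a q of 0.00162, above 98.8% of autosomal peaks. They lay in Kcnab1 at 65126667 on chromosome 3, in Kcng4, beside Kcnv1, beside Kcnab2 within Chd5, and on either side of Kcnj14. Only 2 of these 6 were inside the member itself. The Kcnab1 summit had a second summit of fold 2.27 at a distance of 840 bp, the closest pair inside a member. In all there were 15 runs of summits spaced by 5 kb or less, for which no like count at other genes is given.

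Within the gene, summits showed no lean towards the start. In the 68 members of known direction, 139 summits lay inside the gene, and 29.5%, 36.0% and 34.5% of them fell into its 3 equal parts from the start to the end. In other protein-coding genes the shares were 30.5%, 31.5% and 38.0%. The members' Wilson intervals, 22.6 to 37.5, 28.5 to 44.2 and 27.1 to 42.8, included each of these. In total, 198 of the 234 summits lay in a member and 36 in flanks only. Another gene also covered 40 of the 234 summits, and a protein-coding one covered 14, with no like count over all autosomal peaks given. The densities were 1.86 per 100 kb in spans and 1.99 in flanks (1.39 to 2.75), against 1.78 and 1.48 at other protein-coding genes.

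Other ion channel families gave other densities by the same counts. Genes with symbols starting Cacn, named after voltage-gated calcium channels, were taken by symbol alone and not by function. They held 122 summits at 25 genes, 2.26 per 100 kb (1.88 to 2.70). Sodium channel genes (Scn) held 32 at 14 genes, 2.10 (1.43 to 2.96). The 4 Hcn genes, which encode the cation channels of the pacemaker current, held 8, or 1.504 (0.649 to 2.96), and the 16 autosomal GABA-A receptor subunit genes (Gabr) 22, or 0.810 (0.508 to 1.23). The interval of the potassium channel genes, 1.64 to 2.13, overlapped those of the first 3 families and lay above that of Gabr. These differences were not tested.

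Genes of proteins that bind or anchor potassium channels held fewer summits than expected as a list (0.727 times, 0.594 to 0.881). The list of 21 partners had 104 summits, 1.21 per 100 kb (0.988 to 1.46). At least 1 was found at 16 of 21 genes (76.2%), against 55.5% of all autosomal protein-coding genes, which are shorter (median 17.5 against 44.25 kb). Most of the 104 summits lay in Dlg2, Cntnap2 and Dpp6, which are very long. Dlg2, a membrane scaffold gene, held 29 where 36.4 were expected, Cntnap2, which gathers Kv1 channels beside nodes of Ranvier, held 23 where 33.9 were expected, and Dpp6, a Kv4 partner gene, held 18 where 15.7 were expected. The paralogue of Dpp6, Dpp10, held 7 where 24.8 were expected. Of the 21, 10 lay above their expected number and 11 below. Dpp10, Cntnap2 and Dlg2, picked for having the largest shortfalls, together held 59 where 95.2 were expected. The other 18 held 45 where 47.8 were expected. Because the 3 were picked by these same counts, the split cannot show that the shortfall is limited to them. None of the 21 had a summit within 1 kb of an end, where 8.67% of all autosomal protein-coding genes had one. At that share, a count of 0 among 21 genes is within counting error. Adam22, where 5.34 were expected, and Lgi1, whose secreted protein binds ADAM22, were among the partners with 0 summits.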

How the data were processed

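Peaks were analysed from 1 narrowPeak list that the authors pooled. The series has 2 ChIP and 2 input libraries, and which of them were pooled is not stated. FastQC, Trimmomatic, BWA, SAMtools and MACS2, with builds mm10 and GRCm38.p6, are named in the submitters' processing notes. No source used here gives their versions or settings. The deposited fold is a linear ratio to control, taken here as (pileup + 1)/(control + 1), the usual form of that caller, which gave whole pileups for all but 2 peaks and lowers every fold against the plain ratio, and −log10 p and −log10 q are the authors' values. Depth per library is unknown.

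Genes came from a RefSeq table of GRCm38.p6, and directions and promoter bases from a RefSeq promoter table of that build. Summits (1-based) were counted in gene spans and 10 kb flanks, merged where windows overlapped. Expected numbers used window length and density by chromosome and group of genes of like length. Poisson, Wilson and conditional binomial intervals are at 95% and cover counting error only. Pileups were rebuilt from fold and p within 0.002 of −log10 p. Counting was tested on simulated summits. Kcnd1 and Kcne1l, on chromosome X, are not members. Tools were Python 3.11.15, NumPy 2.4.6, pandas 2.3.3 and SciPy 1.17.1.

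Members, lists and rules were chosen with earlier results of these data known. Genes named were those with an end summit, with most summits (12), with the highest folds, the leading member of each subfamily of at least 4, 14 fixed genes and the 5 longest without a summit. Some genes under this rule are not reported here. Genes named for other reasons (Kcnip3, Kcnh2, Kcnt2, partners, neighbours, and the full list of members without a summit) were named after their values were seen. Alternatives covered windows, peak filters, overlap, merging, end distance and gene length.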

Additional observations from a re-analysis of the deposited data

How the results depend on the processing

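Of 92 recomputed summary values under 14 other settings, 78 stayed within 1.5 times (counts) or within the interval of the reported value. Windows of 50 kb gave 402 summits and a density ratio of 1.28 (1.15 to 1.41), and the K2P ratio turned from 0.879 to 1.41. Only peaks with q of 0.05 or less gave 63 summits, a density ratio of 1.24 (0.954 to 1.59), 4 members with an end summit and a median fold of 3.21. The role ratios were then 3.63 for silent modifiers (1.46 to 7.48, from 7 peaks) and 1.92 for auxiliary subunits (1.204 to 2.92). For calcium- or sodium-activated channels the ratio was 0.618 (0.2005 to 1.44, from 5 peaks), an interval that included 1. Only peaks at or above the median fold gave 127 summits and a median fold of 2.94; both follow from dropping low peaks. Counting ends to 5 kb gave 34 members. Leaving out members over 100 kb, but no other genes, gave a density ratio of 1.63, which compares genes of unlike length. Leaving out all genes over 100 kb, a setting chosen after seeing the data, gave 1.46. Over all settings run the density ratio ranged from 1.045 (gene spans only) to 1.63, the latter from that unlike comparison. Of 108 recounts of named genes, 81 stayed within 1.5 times. Kcnab2 had 4 summits in gene spans or 1 kb windows and 14 at 50 kb, Kcnt1 had 12 at 50 kb, and Kcnma1 had 1 with q of 0.05 or less. Kcnq1 passed Kcnip4 at 50 kb (16 against 15), with q of 0.05 or less (6 against 5), at or above the median fold (9 against 8) and without peaks of minimum width (11 against 9). For the shift in the role ratios the cause was not tested. No paired analysis was possible because the list is pooled and holds no value per library, so no library could be left out either. Unknown depth and pileups of 11 to 21 fragments limit what a single summit can show.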
